A study of Mus musculus with 12 samples.

Results

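The transcripts of 9 receptors that steer T cells between blood, lymphoid organs and inflamed tissue were followed in activated mouse CD8+ T cells, the cytotoxic lymphocytes. They were Ccr2, Ccr7, Ccr9, Cxcr3, Cxcr4, Cxcr6, S1pr1, S1pr4 and Gpr183. They were taken by symbol from the count table, which lists 55291 symbols, and 9 of the 9 passed the filter on low counts that left 19010 genes for testing. The cells came from lymph node and spleen of Dock8 KO and WT mice. After 3 days of activation and expansion they spent 24 h in bovine collagen gel at 2 mg/mL or in media, and RNA was extracted from the recovered cells. The groups were Dock8 KO gel, Dock8 KO media, WT gel and WT media, with 3 libraries each. The Dock8 protein is an exchange factor for Cdc42, a small GTPase that controls actin. The labels give no strain, age, activating agent or details of the Dock8 allele, and do not say whether gel and media libraries share mice.

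Chemokine receptors are G protein-coupled receptors that read gradients of secreted chemokines, and most signal through Gi proteins. In T cells, Ccr7 guides entry into and movement within lymph nodes, and Cxcr4 reads Cxcl12 of lymphoid and bone marrow stroma. Ccr2, Cxcr3 and Cxcr6 mark activated and effector cells bound for inflamed or peripheral tissue, and Ccr9 directs cells to the small intestine. S1pr1, a receptor for sphingosine 1-phosphate, lets lymphocytes leave lymphoid organs, S1pr4 is a related receptor of lymphocytes, and Gpr183 (EBI2) positions lymphocytes along oxysterol gradients.

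The libraries held 28483064 to 61390702 gene-assigned counts. Dock8 itself stood at 109 to 168 counts per 1000000 (CPM) in the 6 KO libraries, against 362 to 450 CPM in the 6 WT libraries, so Dock8 reads were fewer but not absent in the KO. The 3 KO gel libraries detected 28362 to 30104 genes at a common depth, against 24336 to 25142 in the other 9, and their mitochondrial share was 2.27 to 2.61%, against 1.34 to 2.31%. Reads of ribosomal RNA-like loci made up 19.0% of WT gel replicate 2 and 12.5% of KO media replicate 3, against 3.88 to 9.56% elsewhere. The 7 CD8 T cell markers were detected in every group and summed to 2683 to 2741 CPM in KO gel, 2682 to 2973 in KO media, 2894 to 3205 in WT gel and 2834 to 3201 in WT media. Several low-level markers of other cells were highest in KO gel: the dendritic cell factor gene Zbtb46 averaged 2.39 CPM in KO gel and 0.55 to 0.64 CPM in the other groups, and the platelet integrin gene Itga2b averaged 9.54 CPM in KO gel and 2.44 to 3.27 CPM in the others. The 5 neutrophil and mast cell markers summed to 1.93 to 4.69 CPM in KO gel and 1.07 to 2.79 in KO media. In WT cells they summed to 0.86 to 1.16 CPM in gel and 0.49 to 1.14 in media. Sums of the lists that follow did not stand clear above the other groups in KO gel. The 7 B cell markers summed to 747 to 821 CPM in KO gel, 737 to 919 in KO media, 900 to 1061 in WT gel and 900 to 1015 in WT media. The sums for NK and gamma delta T cells, for CD4 and regulatory T cells and for stromal cells overlapped between KO gel and every other group. The part of these differences in the receptor results was not tested. In bulk RNA, fewer cells that carry a transcript and less of it per cell cannot be told apart.

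Set against exon length, Ccr7 had the highest level of the 9 receptors in every group, at 133 ± 6.67 CPM per kb of exon in KO gel, 129 ± 11.8 in KO media, 173 ± 14.8 in WT gel and 144 ± 9.21 in WT media (mean ± SD, n = 3 each). In WT media it was followed by S1pr1, Cxcr3, S1pr4, Cxcr6, Cxcr4, Ccr2, Gpr183 and Ccr9. The levels of S1pr1 and Cxcr3 overlapped there and in WT gel and KO media, so their order was not resolved, whereas in KO gel S1pr1 stood above Cxcr3 in every library, at 102 to 117 against 82.0 to 86.6 CPM per kb. Cxcr6 and Cxcr4 overlapped in WT gel, and Ccr2 and Cxcr4 in KO media. Ccr9 was lowest by far, at 0.62 ± 0.24 CPM per kb in KO gel, 0.16 ± 0.053 in KO media, 0.63 ± 0.28 in WT gel and 0.46 ± 0.20 in WT media. Lengths are merged exons of the GENCODE M21 annotation. The rank of Ccr2 depends on its length of 6760 bases, against 1931 for Cxcr6 and 1808 for Cxcr4. Not divided by length, the means in WT media were 161 CPM for Ccr2, 80.5 for Cxcr6 and 62.4 for Cxcr4. The Ccr9 model is uncertain: it spans 10260 exonic bases, 22 of them shared with Slc6a20a on the opposite strand, 269 with the lincRNA Gm17200 and 1932 with AC165425.1, and the labels do not say whether the counting used strand.

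**Figure D1:**
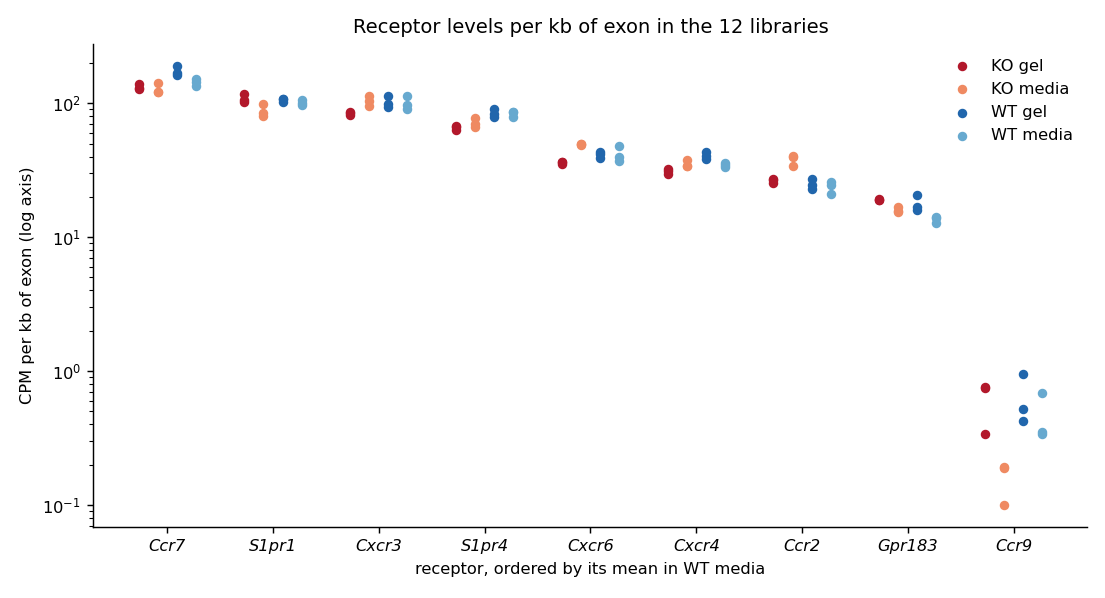
Level of each receptor in CPM per kb of merged exon (log axis), per library as points, for KO gel, KO media, WT gel and WT media. Ccr7 is the highest receptor in all 4 groups and Ccr9 the lowest.

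In Dock8 KO cells, the effector homing receptors Ccr2, Cxcr6 and Cxcr3 fell in gel relative to media, by 31%, 27% and 19%, while the egress receptor S1pr1 rose by 23% and the gut homing receptor Ccr9 3.79-fold. This comparison asks what the collagen gel did to Dock8 KO cells. With 2 receptors higher and 3 lower, 5 of 9 passed a Benjamini-Hochberg adjusted p of 0.05, the threshold for all calls here. The same threshold called 20.8% of all tested genes (11.1% higher and 9.74% lower), and 23.2% of the 9959 genes whose mean log2 CPM reached 3. Scaled by total counts alone, 2007 genes were called higher and 869 lower, against 2111 and 1851 as reported. The median log2 fold change of the 9 receptors was -0.12, against -0.01 over all genes tested and -0.08 over those whose mean log2 CPM reached 3, the level of 8 of the 9 receptors.

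Ccr2 and Cxcr6, both on chromosome 9, had the largest of the 3 falls and kept their calls under each alternative processing tried. The 250 bases before their RefSeq starts (GRCm38.p6, plus strand) are shown so that both upstream regions can be read side by side, Ccr2 at chr9:124101933-124102182 and Cxcr6 at chr9:123806227-123806476. Capitals would mark a match, on either strand, to the FOXO motif GTAAACA, the KLF motif CCACCC or the AP-1 motif TGANTCA, and these windows hold none.
Ccr2: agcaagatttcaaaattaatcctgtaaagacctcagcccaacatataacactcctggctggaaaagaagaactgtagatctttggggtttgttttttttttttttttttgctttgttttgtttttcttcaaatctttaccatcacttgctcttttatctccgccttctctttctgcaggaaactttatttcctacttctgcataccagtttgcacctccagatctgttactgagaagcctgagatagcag
Cxcr6: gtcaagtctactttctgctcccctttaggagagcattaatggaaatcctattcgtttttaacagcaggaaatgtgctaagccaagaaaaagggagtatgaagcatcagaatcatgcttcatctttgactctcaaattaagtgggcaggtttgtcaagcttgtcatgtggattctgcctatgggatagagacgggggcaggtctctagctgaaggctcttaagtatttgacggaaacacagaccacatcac
The motifs occurred in 3.17% (FOXO), 28.1% (KLF) and 6.75% (AP-1) of 32851 such mouse windows. Of the 7 receptors with an entry (all but Ccr7 and S1pr1), 0 held the FOXO motif, 2 the KLF motif and 0 the AP-1 motif.

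Ccr2, the receptor for Ccl2 on monocytes and effector T cells (chromosome 9, GRCm38 positions 124101950 to 124113557), stood at 172, 183 and 180 CPM in KO gel, against 228, 274 and 269 CPM in KO media. Its WT libraries held 166, 183 and 155 CPM in gel, against 175, 166 and 143 CPM in media. The KO media libraries lay above all 9 others. The log2 fold change of KO gel against KO media was -0.53 (SE 0.09, adjusted p = 0.00157).

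Cxcr6, the receptor for Cxcl16 found on tissue-resident and effector T cells (chromosome 9, 123806475 to 123811760), stood at 69.8, 67.9 and 70.9 CPM in KO gel, against 93.8, 95.6 and 96.1 CPM in KO media. The KO gel libraries lay below and the KO media libraries above all 6 WT libraries, which ran from 75.8 to 83.9 CPM in gel and from 72.1 to 93.0 CPM in media. Its log2 fold change in KO cells was -0.45 (SE 0.08, adjusted p = 0.00200).

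Cxcr3, the receptor for the interferon-induced chemokines Cxcl9 and Cxcl10 (chromosome X, 101731535 to 101734269), stood at 142, 150 and 147 CPM in KO gel, against 197, 165 and 180 CPM in KO media. These did not overlap, but the WT libraries did, at 197, 171 and 162 CPM in gel and 197, 168 and 157 CPM in media. The log2 fold change of -0.30 (SE 0.10, adjusted p = 0.0371) lost its call in 9 of 22 alternatives. These included leaving out KO gel replicate 1, 2 or 3, KO media replicate 1 or 3, or WT gel replicate 2 (adjusted p = 0.0556 to 0.135).

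S1pr1 (chromosome 3, 115710433 to 115715072) moved the other way. It stood at 357, 322 and 311 CPM in KO gel, against 258, 299 and 246 CPM in KO media, with no overlap. In WT cells it stood at 313, 329 and 329 CPM in gel, against 321, 298 and 304 CPM in media, so the KO media libraries included the 2 lowest of the 12. The log2 fold change in KO cells was 0.30 (SE 0.08, adjusted p = 0.0172). It lost its call without KO gel replicate 1 (adjusted p = 0.120), KO media replicate 1 (0.0672) or KO media replicate 3 (0.102). The call was also lost without both libraries rich in ribosomal RNA-like reads, WT gel replicate 2 and KO media replicate 3 (adjusted p = 0.116).

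Ccr9 (chromosome 9, 123678439 to 123784330) stood at 7.79, 3.47 and 7.71 CPM in KO gel, against 1.95, 1.03 and 1.97 CPM in KO media, from raw counts of 295, 139 and 309 against 124, 42 and 77. In WT cells it stood at 4.32, 5.37 and 9.72 CPM in gel, against 3.60, 3.48 and 7.07 CPM in media. The KO media libraries were thus the 3 lowest of the 12, and the KO gel libraries lay in the WT range or just below it. The log2 fold change of 1.92 in KO cells (SE 0.44, 95% interval 0.96 to 2.88, adjusted p = 0.0110) kept its call in all 21 alternatives that gave it a value.

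The remaining receptors did not pass the test in KO cells. Gpr183 stood at 54.4, 54.3 and 55.6 CPM in KO gel, against 48.8, 45.0 and 44.3 CPM in KO media, a log2 fold change of 0.25 (SE 0.08, adjusted p = 0.0506) without overlap. It was called in 10 of 22 alternatives. Cxcr4 stood at 53.9, 56.1 and 58.8 CPM in KO gel, against 61.7, 67.6 and 61.2 CPM in KO media, also without overlap (-0.17, SE 0.07, adjusted p = 0.0728). S1pr4 (-0.12, adjusted p = 0.258) and Ccr7 (0.04, adjusted p = 0.747) overlapped between the cultures. In all, 7 of 9 receptors had libraries that did not overlap between KO gel and KO media, against 47.4% of all genes tested.

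**Figure D2:**
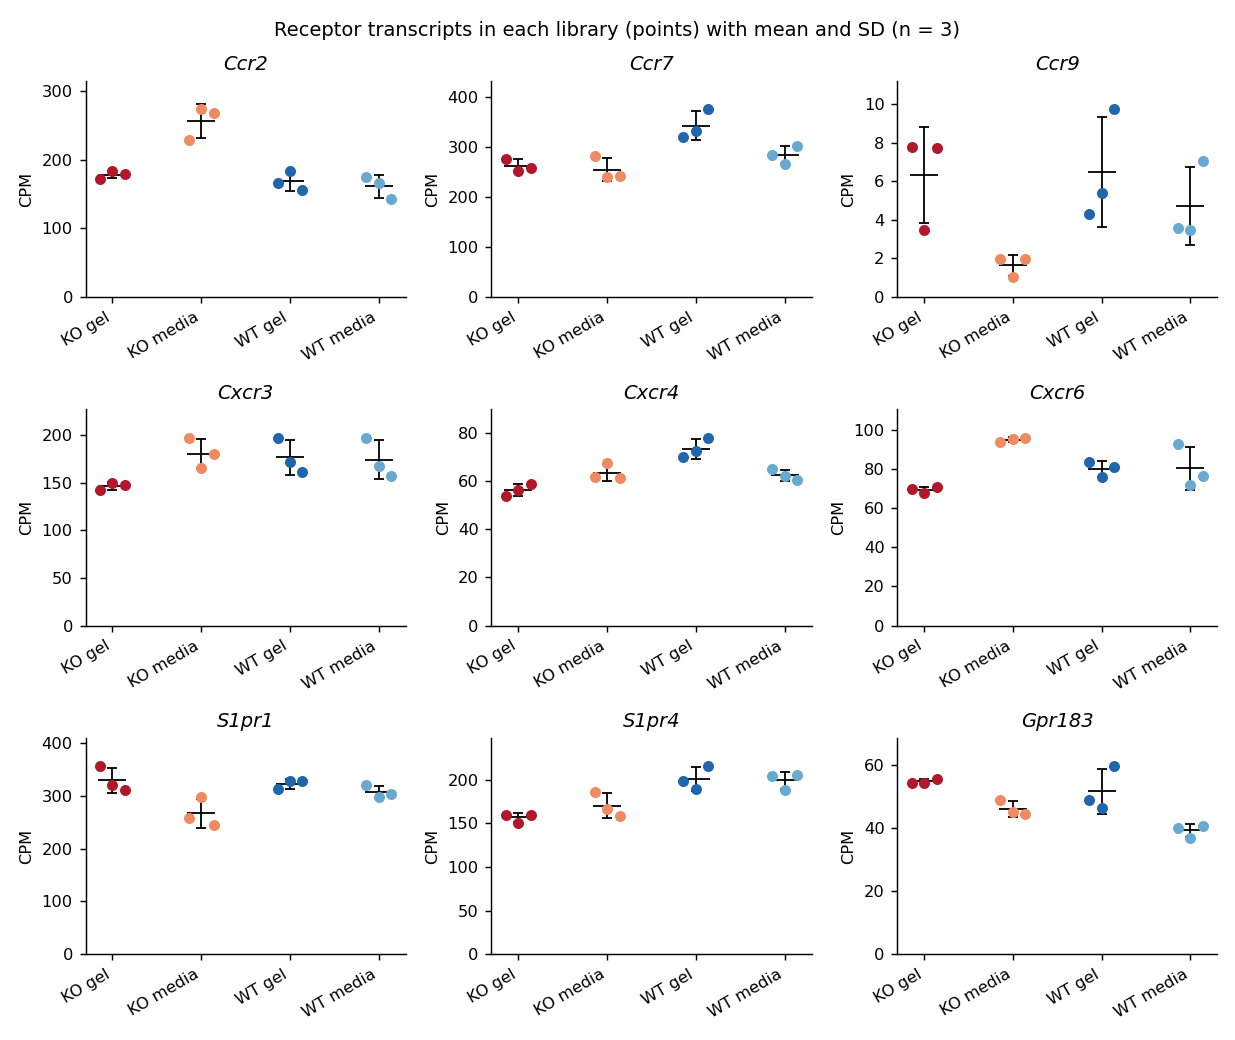
CPM of each of the 9 receptors in each library, with lines for the group mean and SD (n = 3), for KO gel, KO media, WT gel and WT media. Ccr2 is highest in KO media, Cxcr6 is lowest in KO gel, and Ccr9 is lowest in KO media.

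In WT cells, no receptor was called between gel and media by edgeR with the 4 groups fitted together, where 0.0368% of all genes were called. Gpr183, Ccr7 and Cxcr4 had gel libraries that all lay above the media libraries (3 of 9 receptors, against 9.18% of all genes), with increases of 32%, 20% and 18%. At an unadjusted p under 0.05, 3 receptors passed, against 5.43% of all genes. DESeq2 called 1, Gpr183, where it called 0.263% of all genes, and limma-voom called 0. A fit of the 6 WT libraries with the replicate number as a block was added after the data were seen, and the labels state no pairing. With that block, 4 of 9 receptors were called higher in gel, against 3.72% of 17926 genes.

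Gpr183 (chromosome 14, 121952551 to 121965195) stood at 48.7, 46.4 and 59.6 CPM in WT gel, against 40.1, 36.9 and 40.7 CPM in WT media. Replicate 3 in gel stood above the other two. The log2 fold change was 0.40 (SE 0.09, adjusted p = 0.315), and 0.39 (SE 0.05, adjusted p = 0.00049) with the replicate block. Gpr183 was thus higher in gel without overlap in both genotypes, and the interaction of genotype and culture was -0.15 (SE 0.12, 95% interval -0.40 to 0.11, adjusted p = 0.524).

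Ccr7 (chromosome 11, 99144196 to 99155077) stood at 320, 332 and 376 CPM in WT gel, against 285, 266 and 303 CPM in WT media (0.27, SE 0.08, adjusted p = 0.694; with the block 0.27, SE 0.04, adjusted p = 0.00112). Cxcr4 (chromosome 1, 128588199 to 128592293) stood at 69.8, 72.6 and 78.0 CPM in WT gel, against 64.9, 62.1 and 60.4 CPM in WT media (0.23, SE 0.07, adjusted p = 0.610; with the block 0.24, SE 0.05, adjusted p = 0.0106). Each of the 3 gel libraries of both genes lay above each media library. Ccr9 was also called with the block (0.45, SE 0.11, adjusted p = 0.0223), at 0.47 (SE 0.40, adjusted p = 0.997) without it. Ccr2, Cxcr3, Cxcr6, S1pr1 and S1pr4 had log2 fold changes of -0.0032 to 0.07 in WT cells, with 95% intervals that stayed within -0.18 and 0.26.

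Between the genotypes in gel, Ccr7, Cxcr4 and S1pr4 were lower in KO than in WT cells, each by 22 to 23%. The comparison asks how the genotypes differed once confined in the matrix. Of the 9 receptors, 0 were called higher and 3 lower, against 14.8% of all genes called (7.12% higher and 7.71% lower) and 13.3% called lower among genes whose mean log2 CPM reached 3. The 9 receptors had a median log2 fold change of -0.21, against -0.0003 over all genes tested and -0.07 over those whose mean log2 CPM reached 3.

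The upstream windows of Cxcr4 and S1pr4 are shown because both receptors were lower in KO gel and both have an entry in RefSeq (GRCm38.p6, minus strand). They lie at chr1:128592300-128592549 and chr10:81500138-81500387. The capitals in S1pr4 mark the KLF motif CCACCC read on the other strand, with its first base at position -107 from the start.
Cxcr4: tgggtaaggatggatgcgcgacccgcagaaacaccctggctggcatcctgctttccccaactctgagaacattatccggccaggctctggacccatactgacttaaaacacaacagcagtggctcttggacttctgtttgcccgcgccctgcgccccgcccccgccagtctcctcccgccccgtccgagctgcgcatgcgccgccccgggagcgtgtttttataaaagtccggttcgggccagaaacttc
S1pr4: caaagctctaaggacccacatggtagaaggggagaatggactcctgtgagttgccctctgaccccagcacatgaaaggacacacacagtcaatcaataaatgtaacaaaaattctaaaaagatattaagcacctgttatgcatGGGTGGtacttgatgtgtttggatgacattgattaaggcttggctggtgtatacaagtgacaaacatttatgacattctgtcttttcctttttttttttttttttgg
The match is a description of the letters, and 28.1% of all windows hold this motif. The KLF motif of Ccr9 began at position -74.

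S1pr4 (chromosome 10, 81497747 to 81500132) stood at 160, 151 and 160 CPM in KO gel, against 198, 189 and 216 CPM in WT gel. In media it stood at 186, 167 and 159 CPM in KO cells, against 205, 188 and 205 CPM in WT cells, so all 6 KO libraries lay below all 6 WT libraries. The log2 fold change in gel was -0.36 (SE 0.07, adjusted p = 0.00593), and that in media was -0.23 (SE 0.07, adjusted p = 0.504).

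Cxcr4 stood at 53.9, 56.1 and 58.8 CPM in KO gel, against 69.8, 72.6 and 78.0 CPM in WT gel, with no overlap (-0.38, SE 0.07, adjusted p = 0.00177). The media libraries of both genotypes lay between these 2 groups. Ccr7 stood at 277, 251 and 259 CPM in KO gel, against 320, 332 and 376 CPM in WT gel (-0.38, SE 0.08, adjusted p = 0.00809). In media its log2 fold change was -0.16 (SE 0.08, adjusted p = 0.712), at 282, 241 and 242 CPM in KO cells, against 285, 266 and 303 CPM in WT cells.

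Cxcr3 (-0.27, SE 0.10, adjusted p = 0.0706) and Cxcr6 (-0.21, SE 0.08, adjusted p = 0.105) also had KO gel libraries below all WT gel libraries without passing the test. That made 5 of 9 receptors without overlap, against 38.2% of all genes. Ccr2, S1pr1, Gpr183 and Ccr9 had log2 fold changes of 0.08, 0.03, 0.08 and -0.05, and for Ccr9 the 95% interval ran from -0.93 to 0.83. Scaling by total counts alone put the median of all genes at 0.10 in this comparison (1875 genes called higher and 407 lower, against 1354 and 1465 as reported), and with it Ccr7 (adjusted p = 0.0938), Cxcr4 (0.0504) and S1pr4 (0.113) were no longer called. Without any 1 library they kept their calls.

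In media, Ccr2 was the 1 receptor called between the genotypes, 1.59-fold higher in KO cells (log2 fold change 0.67, SE 0.09, adjusted p = 0.00325), where 0.189% of all genes were called and 0.0263% higher. It stood at 228, 274 and 269 CPM in KO media, against 175, 166 and 143 CPM in WT media. Every KO library lay above every WT library. The call was missed with both libraries rich in ribosomal RNA-like reads left out (adjusted p = 0.0540).

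Ccr2 also marks monocytes, and the 10 markers of macrophages, monocytes and dendritic cells summed to 35.4 to 46.2 CPM in KO media, against 13.2 to 33.2 CPM in WT media. In gel they summed to 34.4 to 46.2 CPM in KO cells, against 14.3 to 32.7 CPM in WT cells. Most of that sum in media was Itgax, at 38.1 ± 6.16 CPM in KO cells and 22.3 ± 9.84 CPM in WT cells. Of the 10 markers, 2 had 0 counts in the KO media libraries, Csf1r and Siglech, and 1 had 0 counts in the WT media libraries. The part of such cells in the Ccr2 difference was not tested.

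Ccr9 had the largest difference in size in media, at 1.95, 1.03 and 1.97 CPM in KO cells, against 3.60, 3.48 and 7.07 CPM in WT cells (log2 fold change -1.4985, SE 0.44, adjusted p = 0.437). The groups did not overlap. A fit of the media libraries alone with the replicate number as a block was also added after the data were seen. With that block, Ccr9 was called lower in KO (-1.46, SE 0.21, adjusted p = 0.0244, where 0.177% of 18068 genes were called). Without overlap were 5 of 9 receptors, against 10.7% of all genes: Ccr2, Cxcr6 and Gpr183 higher in KO media, S1pr4 and Ccr9 lower. Cxcr6 (0.24, adjusted p = 0.522), Gpr183 (0.23, adjusted p = 0.576), S1pr1 (-0.20, adjusted p = 0.606), Ccr7, Cxcr3 (0.05, adjusted p = 0.921) and Cxcr4 (0.02, adjusted p = 0.947) did not pass the test with or without the block.

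**Figure D3:**
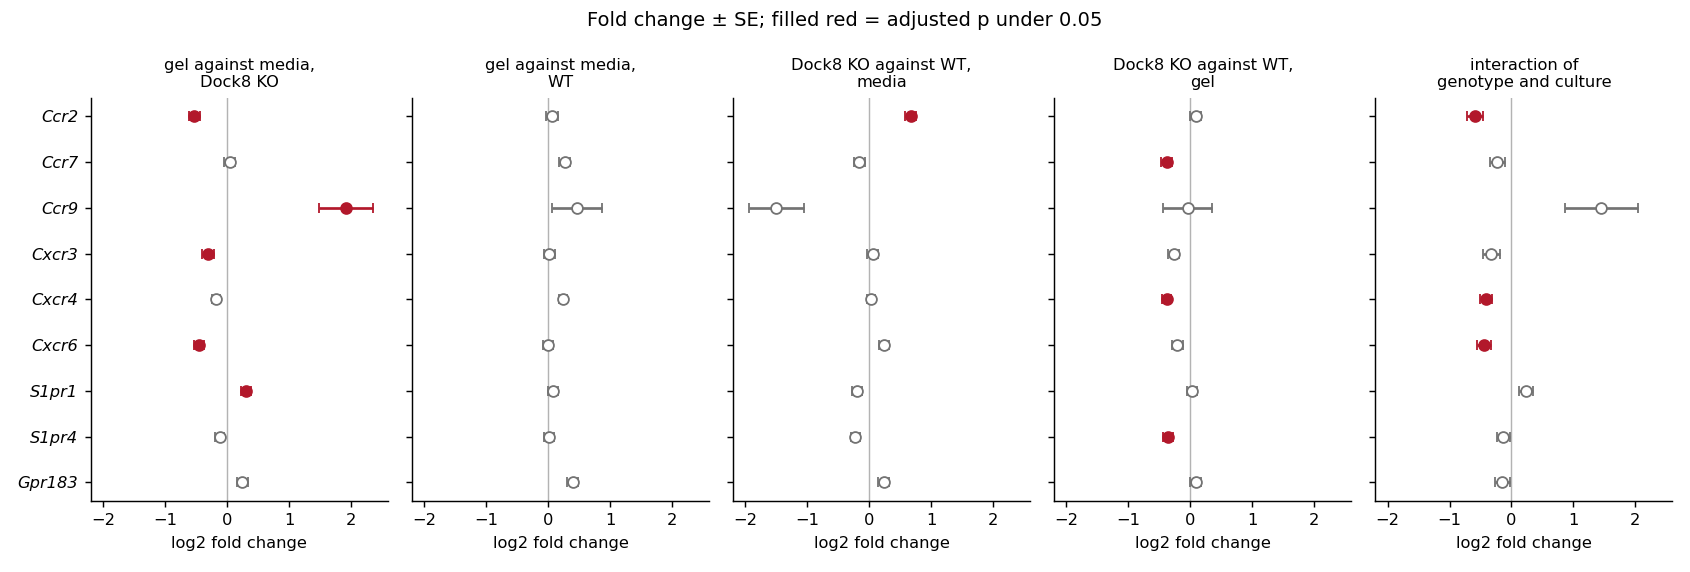
Log2 fold changes of the 9 receptors with their SE in the 4 comparisons of groups and for the interaction, with filled red points for an adjusted p under 0.05. Between groups, called differences are Ccr2, Cxcr6, Cxcr3, S1pr1 and Ccr9 between KO gel and KO media, Ccr2 between KO and WT media, and Ccr7, Cxcr4 and S1pr4 between KO and WT gel.

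The response to gel itself differed between the genotypes for Ccr2, Cxcr4 and Cxcr6, each more negative in KO than in WT cells. The interaction was -0.59 for Ccr2 (SE 0.13, adjusted p = 0.0269), from a gel response of -0.53 in KO and 0.06 in WT cells. For Cxcr4 it was -0.41 (SE 0.09, adjusted p = 0.0310), from -0.17 in KO and 0.23 in WT cells, so the fitted direction was opposite. For Cxcr6 it was -0.45 (SE 0.12, adjusted p = 0.0491), from -0.45 in KO and -0.0032 in WT cells. These were 3 of 9 receptors, all lower, against 3.35% of all genes called and 1.45% lower. Scaled by total counts alone, 458 genes were called higher and 24 lower, against 360 and 276 as reported.

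These 3 interactions lay near the threshold. Ccr2, Cxcr4 and Cxcr6 were not called with total counts as the only scaling (adjusted p = 0.0691, 0.255 and 0.224), with only genes whose mean log2 CPM reached 3 (0.0649, 0.0715 and 0.0856) or without both libraries rich in ribosomal RNA-like reads (0.174, 0.111 and 0.164). Ccr2 lost its call without any 1 of the KO gel libraries, KO media replicate 2 or 3, WT gel replicate 2 or WT media replicate 2 (adjusted p = 0.0537 to 0.0794). Cxcr4 lost it without any 1 of the KO gel libraries, KO media replicate 1 or 2, WT gel replicate 2, or WT media replicate 2 or 3 (0.0511 to 0.0802). Cxcr6 kept it among these fits only without WT media replicate 1, and was otherwise at 0.0509 to 0.123. The size of the difference kept its sign throughout, at -0.67 to -0.45 for Ccr2, -0.46 to -0.28 for Cxcr4 and -0.57 to -0.33 for Cxcr6 over 21 alternatives each. Ccr9 (1.45, SE 0.59, adjusted p = 0.206), Cxcr3 (-0.32, adjusted p = 0.201), S1pr1 (0.23, adjusted p = 0.280), Ccr7 (-0.23, adjusted p = 0.313), Gpr183 and S1pr4 (-0.13, adjusted p = 0.516) did not pass. Ccr9 was called with the replicate block by number (adjusted p = 0.0377, where 5.06% of all genes were called). Ccr9 (2.38e-05), Cxcr3 (0.00892) and Ccr7 (0.0366) were called with a block that takes same-numbered gel and media libraries of a genotype as 1 mouse. The labels do not state this, and 18% of all genes were called with it.

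**Figure D4:**
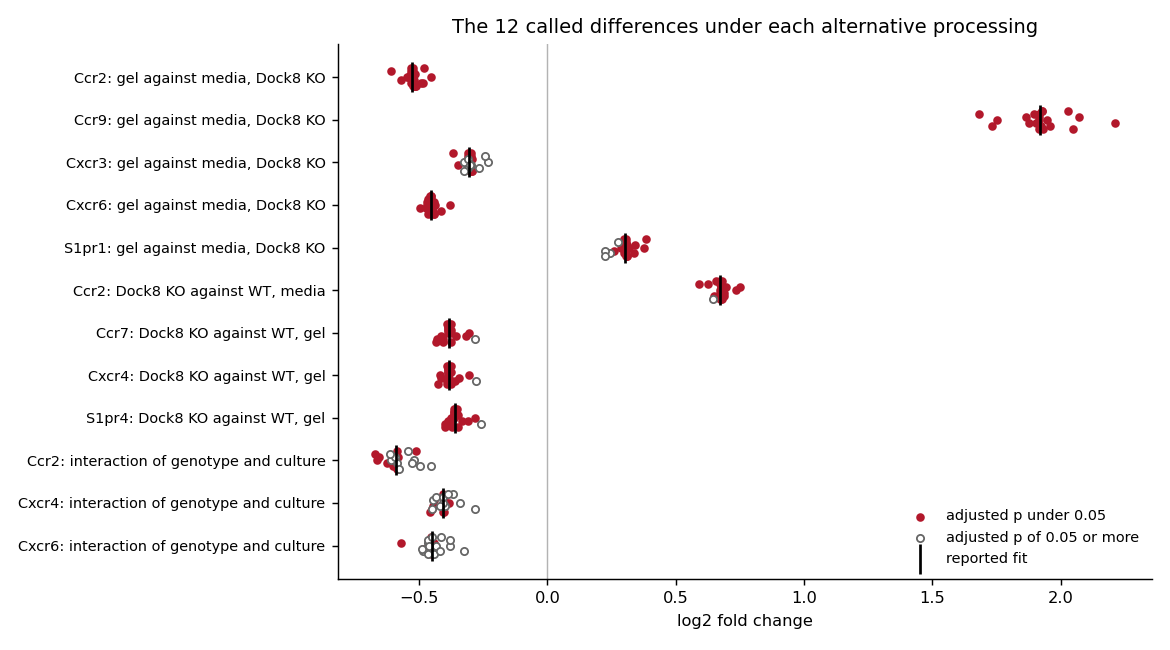
Log2 fold change of each of the 12 called receptor differences under each alternative processing, with filled points at an adjusted p under 0.05, open points at 0.05 or more and a black line at the reported value. Signs do not change, while many points of the 3 interactions, of Cxcr3 and some of S1pr1 are open.

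Beyond the 9 receptors, the genes around them were followed in 6 lists, of which 60 genes could be tested. In KO gel against KO media, 7 of the 60 were higher and 5 lower, a share of called genes near the 20.8% of all genes tested. In KO gel against WT gel, 3 were higher and 5 lower, near the 14.8% of all genes. By edgeR, 0 of the 60 were called between WT gel and WT media (6 at an unadjusted p under 0.05, where 5.43% of all genes passed), 0 between KO and WT media (9, against 7.49%) and 0 for the interaction (7, against 19.6%). DESeq2 called 1 in each of these, and limma-voom called 0 in each. With the replicate block in the WT libraries alone, 6 of 59 were higher and 1 lower in gel, against 3.72% of all genes called, and in the media libraries alone 0 of 60 were called between the genotypes (9 unadjusted). Without the 2 libraries rich in ribosomal RNA-like reads, 2 genes were higher (Cxcl10 and Mfsd2b) and 1 lower (Zfp683) in KO gel against KO media, and 2 higher (Cxcl10 and Mfsd2b) and 2 lower (Lpar2 and Zfp683) in KO gel against WT gel. Scaled by total counts alone, the split in KO gel against WT gel was 5 higher and 1 lower.

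Among 14 regulators of egress and homing, 3 rose and 2 fell in KO gel against KO media, where 11.1% of all genes were called higher and 9.74% lower. Cd69, which encodes a surface protein that pulls S1pr1 off the membrane, averaged 98.3 ± 7.45 CPM in KO gel and 73.4 ± 3.63 CPM in KO media (log2 fold change 0.42, SE 0.11, adjusted p = 0.0135). It averaged 89.0 ± 10.2 CPM in WT gel and 62.8 ± 9.77 CPM in WT media (0.50, SE 0.11, adjusted p = 0.301; with the replicate block in WT libraries 0.51, adjusted p = 1.32e-06). The transcription factor genes Foxo3 (0.25, adjusted p = 0.0212) and Klf3 (0.65, adjusted p = 0.0222) rose, and Tbx21, the gene of T-bet, fell by 0.39 (adjusted p = 0.0275). Zfp683, which encodes the residency factor Hobit, averaged 0.76 ± 0.095 CPM in KO gel, 1.74 ± 0.34 in KO media, 2.07 ± 0.34 in WT gel and 2.76 ± 0.48 in WT media. It was lower in KO gel than in KO media (-1.19, SE 0.22, adjusted p = 0.00229) and than in WT gel (-1.44, SE 0.22, adjusted p = 0.000942). Runx3, a CD8 lineage factor gene, was lower in KO gel than in WT gel (-0.28, adjusted p = 0.0262). Klf2, whose product activates S1pr1, averaged 132 ± 9.05 CPM in KO gel and 112 ± 13.3 CPM in KO media (0.24, SE 0.12, adjusted p = 0.149). With the replicate block, Klf2 (0.20, adjusted p = 0.0208) and Prdm1, the gene of Blimp-1 (0.31, adjusted p = 0.00801), were higher in WT gel than in WT media.

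Of 17 other chemokine receptors, 5 were expressed enough for testing, and 1 fell in KO gel against KO media. That was Ccr4, the receptor for Ccl17 and Ccl22, at 4.38 ± 0.69 CPM in KO gel and 6.77 ± 0.79 CPM in KO media (-0.63, SE 0.19, adjusted p = 0.0325). Of 13 other receptors for lipids, 10 were tested. The prostaglandin E2 receptor gene Ptger2 rose in KO gel against KO media (0.37, SE 0.11, adjusted p = 0.0291), and the lysophosphatidic acid receptor gene Lpar2 was lower in KO gel than in WT gel (-0.36, SE 0.08, adjusted p = 0.00732).

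Of 12 ligands of the receptors, 3 were tested. Cxcl10, a ligand of Cxcr3, averaged 1.59 ± 0.26 CPM in KO gel, 0.36 ± 0.043 in KO media, 0.55 ± 0.29 in WT gel and 0.44 ± 0.18 in WT media. It was higher in KO gel than in KO media (2.15, SE 0.33, adjusted p = 0.000608) and than in WT gel (1.61, SE 0.33, adjusted p = 0.00518), at a low level throughout. Of 12 enzymes and transporters of sphingosine 1-phosphate and oxysterols, 7 were tested. Mfsd2b, a sphingosine 1-phosphate exporter gene of erythroid cells and platelets, averaged 2.61 ± 0.97 CPM in KO gel, 1.03 ± 0.20 in KO media, 1.17 ± 0.39 in WT gel and 1.03 ± 0.12 in WT media. It was higher in KO gel than in KO media (1.36, SE 0.28, adjusted p = 0.00418) and than in WT gel (1.198, SE 0.28, adjusted p = 0.0123). The summed erythroid and platelet markers moved with it, at 11.1 to 25.0 CPM in KO gel, 5.02 to 7.61 in KO media, 3.38 to 5.79 in WT gel and 3.11 to 5.19 in WT media, and their part in the result was not tested. Spns2, another exporter gene, was below 2 CPM in every library (KO gel against WT gel 2.71, SE 0.76, adjusted p = 0.0299).

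Of the genes for G protein coupling and receptor desensitization, 21 were tested. Pik3cg, the phosphoinositide 3-kinase subunit downstream of Gβγ, fell in KO gel against KO media (-0.23, SE 0.06, adjusted p = 0.0127), as did the arrestin gene Arrb2 (-0.26, SE 0.08, adjusted p = 0.0381), while the receptor kinase gene Grk5 rose (0.34, SE 0.10, adjusted p = 0.0348). In KO gel against WT gel, Arrb2 (-0.29, SE 0.08, adjusted p = 0.0308) and Gnai2, the main Gi subunit of lymphocytes (-0.24, SE 0.08, adjusted p = 0.0475), were lower. With total counts as the only scaling, Arrb2, Pik3cg and Gnai2 were not called, nor were Lpar2 and Runx3 in KO gel against WT gel.

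The transcripts most like each called receptor over the 12 libraries were picked by Pearson's r of log2 CPM among 9018 genes, as a description of libraries that share depth and group differences. For Ccr2 they were Galnt3 (r = 0.943), Ptges3-ps (0.916) and Exd2 (0.914). For Ccr7 they were Tmem63a (r = 0.941), Atg9a (0.938) and Dag1 (0.934), and for Cxcr4 Tfdp2 (0.919), Serinc3 (0.906) and Fam53c (0.902). Ccr9 was most like Arntl, the clock factor gene, with r = 0.974, then Zhx2 (0.966) and Pde4b (0.962). Cxcr3 was most like Ndufa10 (r = 0.970), Gapdh-ps16 (0.969) and Timm17b (0.967), and Cxcr6 most like Pgam5 (0.967), Rpl30-ps8 (0.942) and Snu13 (0.939). S1pr4 had the closest partner of all, Ppm1m (r = 0.987), ahead of Ctsa (0.966) and Spn (0.964), and S1pr1 the least close, Fam241a (0.883), ahead of Ikzf2 (0.874) and P2ry10 (0.867).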

How the data were processed

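Bulk RNA was measured in 12 libraries, 3 per group. Per the labels, total RNA was isolated with the PureLink kit, 150 ng entered each library, ribosomal RNA was depleted with RiboCop and libraries were made with the KAPA HyperPrep kit. The deposited table holds raw counts per gene symbol. Per the submitters' processing notes, FastQC, MultiQC, HISAT2, SAMtools, Picard and featureCounts were used with GRCm38 (mm10). The annotation, strand setting and handling of duplicates and multimapping reads, which affect counts of overlapping or similar genes, were not given in the sources used here.

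Counts were filtered with filterByExpr, scaled by TMM and tested with edgeR 4.0.16 (quasi-likelihood F test, robust dispersion, R 4.3.3) in 1 fit of 4 groups and 5 contrasts. P-values were adjusted by Benjamini-Hochberg over the 19010 genes tested and called under 0.05. CPM use TMM-scaled totals. Standard errors are the absolute log2 fold change over the square root of F. Totals of 28483064 to 61390702 counts leave the spread between libraries as the main error: replicate pairs had chi-squares of 11.8 to 155 for each degree of freedom. Whether gel and media libraries share mice is not stated, so p-values measure the spread between these libraries. The members and lists were chosen with earlier results of these data known.

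Alternatives were other scalings, filters, DESeq2 1.42.0, limma-voom (limma 3.58.1), replicate blocks and leaving out libraries. The labels share replicate numbers, so pairing was checked by the correlation of same-numbered libraries' deviations from their group means over 9959 genes. It was 0.784, 0.237 and 0.793 in WT gel and media, and 0.210, 0.161 and 0.379 in KO and WT media. All were over 0.1, and in these comparisons the blocked values are given where they change a call. It was -0.0448, 0.168 and 0.180 in KO gel and media, and -0.419, 0.139 and 0.142 in KO and WT gel. Libraries of different numbers reached at most -0.0202 in WT gel and media. They reached 0.179 in KO gel and media, 0.109 in KO and WT media and 0.476 in KO and WT gel. In those comparisons, 0.1 did not separate same from different numbers. Libraries of different genotypes cannot share a mouse. Of other lists, up to 4 called members per comparison are named in order of p, plus Klf2, chosen after its values were seen, and 1 member of the lists is not reported here. The fifth called regulator, Tbx21, is also outside that rule. Counts of 12 libraries were also simulated from 1 mean per gene, with 200 of 18625 genes changed in KO gel. The test of KO gel against KO media recovered 8% of changes of 1.2-fold, 96% of 1.5-fold, 96% of 2-fold and 100% of 4-fold, with 3 of 153 calls false. The changed genes had a mean log2 CPM of at least 3, which Ccr9 did not reach. In the data 20.8% of genes were called, far more than were changed here, so these rates do not carry over to the data. Promoter windows are RefSeq sequence, matched by symbol for 7 of 9 receptors.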

Additional observations from a re-analysis of the deposited data

Results flagged for a closer look

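The gel response of 3 receptors differed between the genotypes by the test of the interaction itself. For Ccr2 the response in KO cells minus that in WT cells was -0.59 on the log2 scale (adjusted p = 0.0269), for Cxcr4 it was -0.41 (adjusted p = 0.0310) and for Cxcr6 -0.45 (adjusted p = 0.0491), by edgeR's quasi-likelihood test. None of the 3 was called with total counts as the only scaling (adjusted p = 0.0691, 0.255 and 0.224). Ccr2 had its 3 highest libraries in KO media, so its difference between cultures in KO cells shares the KO media libraries with its difference between genotypes in media. KO gel libraries also had the most detected genes, and the part of that in these results was not tested.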

How the results depend on the processing

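The signs of the 12 called receptor differences held under each alternative. Counts of receptors called moved as follows. With total counts alone as scaling, 0 were called between KO and WT gel and 0 for the interaction. Without a filter beyond 1 count, 1 was called for gel against media in WT cells (0.495% of all genes) and 2 for KO against WT in media (1.1%). With genes of a mean log2 CPM of at least 3 only, 0 interactions were called, and DESeq2 called 1 receptor for WT gel. Without WT gel replicate 2 and KO media replicate 3, 3 were called for KO gel against KO media, 0 for KO against WT media and 0 interactions. A fit of the compared groups alone called 5 between KO and WT gel (18% of all genes).

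The replicate block by number, fitted to all 12 libraries, called 2 receptors for KO against WT media (0.3% of all genes). Another block, by assumed mouse, takes gel and media libraries of the same genotype and number as 1 mouse. With it 2 were called for WT gel (0.9% of all genes) and 6 interactions (18%, against 3.35% as reported). The blocked fits added after seeing the data called 4 for the WT libraries alone and 2 for the media libraries alone. The KO gel and media numbers and the KO and WT gel numbers were not taken as pairs: with the block by number Gpr183 was called in KO gel against KO media (adjusted p = 0.0301) and Cxcr3 in KO against WT gel (0.0285).

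Leaving out 1 library at a time, 3 to 7 receptors were called for KO gel against KO media, 0 to 0 for WT gel against WT media, 1 to 2 for KO against WT media, 3 to 5 for KO against WT gel and 0 to 4 for the interaction. Signs turned only where a log2 fold change was not called. Cxcr6 in WT gel against media was 0.0007 with RLE factors, with the stricter filter and with DESeq2, 0.0051 with limma-voom, 0.0031 and 0.0059 with the mouse and WT blocks and 0.0397 without both libraries rich in ribosomal RNA-like reads. With total counts alone, WT gel against media turned for Ccr2 (-0.0325), Cxcr3 (-0.0675), S1pr1 (-0.0172) and S1pr4 (-0.0736), and Ccr9 turned in KO against WT gel (0.0495). Without a filter, Ccr7 in KO gel against media (-0.0025) and S1pr1 in KO against WT gel (-0.0008) turned. Over single libraries left out, the range was -0.0147 to 0.1165 for Ccr7 in KO gel against media. In WT gel against media it was -0.0172 to 0.1242 for Ccr2, -0.0652 to 0.1212 for Cxcr3, -0.0766 to 0.1148 for Cxcr6 and -0.0362 to 0.0594 for S1pr4. In KO against WT media it was -0.0153 to 0.1533 for Cxcr3 and -0.0223 to 0.0676 for Cxcr4. In KO against WT gel it was -0.2791 to 0.3836 for Ccr9 and -0.0368 to 0.0658 for S1pr1. The cause was not tested. Over all genes, counts called moved by more than 1.5 times from the reported 3962 (KO gel against KO media), 7 (WT gel against WT media), 36 (KO against WT media), 2819 (KO against WT gel) and 636 (interaction) as follows. Without a filter they were 6063 for KO gel, 195 for WT gel, 435 in media and 1768 interactions, and with DESeq2 50 for WT gel, 89 in media and 1149 interactions. With genes of a mean log2 CPM of at least 3 only, which are fewer, they were 2056, 4, 19, 1511 and 248 in the order above. For WT gel, 15 were called with total counts alone and 2 with those groups alone, and for KO gel 6159 with those groups alone. The block by number gave 57 in media and 962 interactions, and the block by assumed mouse gave 7804 for KO gel, 171 for WT gel and 3431 interactions. Without both libraries rich in ribosomal RNA-like reads they were 2200 for KO gel, 19 in media, 1444 between KO and WT gel and 30 interactions. With 1 library left out they ran from 2163 to 5510, 7 to 16, 23 to 70, 1609 to 3893 and 185 to 2011 in that order.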
